A study of Mus musculus with 2 samples.

Results

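Secreted Wnt antagonists and Wnt target genes were followed across the cells of metastasis-bearing mouse lungs, as 7 genes out of the 27998 in the deposited matrices. The members were every row whose symbol is Wif1, Sfrp1, Sfrp4, Dkk2, Dkk3, Axin2 or Lgr6, 1 row each. Labelling-4T1 cells had been given to mice by vein and the lungs were taken 7 days later. 4T1 cells come from a mammary carcinoma of the mouse and seed the lung, and the Labelling version is known to release a cell-penetrating mCherry protein that neighbouring cells take up. CD45- lung cells, which lack the leukocyte surface protein CD45, were sorted by flow cytometry into Cherry_Positive and Cherry_Negative cells, with 1 single-cell library of each. Both libraries come from lungs given the same tumour cells. The labels do not give the mice's strain, age or number, and do not say whether these lungs had been irradiated, although the title of the series concerns irradiation. Since each group is 1 library, differences compare these 2 libraries without replicates and no test was possible. Intervals are at the 95% level and cover counting error alone.

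Wnt proteins are secreted signals that bind Frizzled receptors and LRP5 or LRP6 on the cell surface. In the canonical branch this stabilises beta-catenin, which enters the nucleus and acts with TCF and LEF proteins on target genes. WIF1 and the secreted Frizzled-related proteins SFRP1 and SFRP4 bind Wnt proteins outside the cell, DKK2 binds the LRP co-receptors, and DKK3 is a divergent DKK family member whose action on Wnt signalling is less settled. AXIN2 is a negative regulator that canonical signalling itself induces, and LGR6 is a receptor for R-spondins, which strengthen Wnt signalling. In the lung, Wnt signals from fibroblasts are known to act on the alveolar epithelium.

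Promoter sequences, as RefSeq gives them for GRCm38.p6, were available here for 4 of the 7 members, Wif1, Dkk2, Axin2 and Lgr6. Those of the antagonist Wif1, of the target Axin2 and of the receptor Lgr6 are shown, and that of Dkk2 is not printed. Each runs 5′ to 3′ along the gene's strand over 300 bases, with 250 before the start of transcription and 50 from it. Capitals mark CTTTG on either strand, the core of the motif that TCF and LEF proteins bind.
Wif1: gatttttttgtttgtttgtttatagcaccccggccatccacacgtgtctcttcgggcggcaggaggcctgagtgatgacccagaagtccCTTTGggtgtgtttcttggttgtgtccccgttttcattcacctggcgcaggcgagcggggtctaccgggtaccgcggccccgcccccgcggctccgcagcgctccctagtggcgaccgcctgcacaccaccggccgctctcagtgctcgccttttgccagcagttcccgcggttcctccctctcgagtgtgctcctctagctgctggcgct
Axin2: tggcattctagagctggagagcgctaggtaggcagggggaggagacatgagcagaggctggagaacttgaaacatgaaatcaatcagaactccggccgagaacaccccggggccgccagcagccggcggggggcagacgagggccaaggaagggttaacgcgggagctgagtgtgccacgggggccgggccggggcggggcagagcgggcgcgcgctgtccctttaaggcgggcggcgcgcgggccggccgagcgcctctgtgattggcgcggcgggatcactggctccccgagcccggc
Lgr6: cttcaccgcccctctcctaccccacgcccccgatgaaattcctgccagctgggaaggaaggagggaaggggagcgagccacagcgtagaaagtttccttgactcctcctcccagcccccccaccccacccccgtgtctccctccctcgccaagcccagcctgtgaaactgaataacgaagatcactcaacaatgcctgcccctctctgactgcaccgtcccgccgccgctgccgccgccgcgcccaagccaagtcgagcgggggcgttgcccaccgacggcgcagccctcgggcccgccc
They lie at chr10:121033754-121034053 on the + strand for Wif1, chr11:108920099-108920398 on the + strand for Axin2 and chr1:135105227-135105526 on the - strand for Lgr6. Wif1 held 1 CTTTG, and so did the promoter of Dkk2, while the letters occur on neither strand in the windows of Axin2 and Lgr6. They were present in 53.9% of all 32851 promoters of that length, so a match is a description only. The GC content was 63.0% for Wif1, 70.0% for Axin2 and 67.7% for Lgr6. In GENCODE M21 on GRCm38 the other members are Sfrp1 on chromosome 8 (23411502 to 23449632, + strand), Sfrp4 on chromosome 13 (19623104 to 19632994, + strand), Dkk2 on chromosome 3 (132085292 to 132180304, + strand) and Dkk3 on chromosome 7 (112116017 to 112159057, - strand). All 7 are protein-coding genes. Axin2 overlaps the antisense gene Gm11670, and reads of the pair could not be told apart if strand was not used in counting, which the labels do not state.

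The Cherry_Positive library held 1826 barcodes and 10094853 UMIs, with a median of 4324 per barcode, and the Cherry_Negative library 2861 barcodes and 11632459 UMIs, with a median of 2971. A UMI (unique molecular identifier) marks 1 captured RNA molecule. Filtering left 1766 and 2804 cells, and 13 barcodes were found in both libraries. The cells were clustered without the 7 members and without 76 other Wnt pathway genes, and the classes were named from markers that include none of these. The names that end in -like rest on markers only. Of the 22 clusters, 21 could be named. Cluster 0, led by Hey1, Gpihbp1 and Clec1a, had markers of both arterial and general capillary cells among its leading genes and is called endothelial cluster 0. The comparison between libraries was made in the 7 classes that had 50 or more cells in both, alveolar fibroblast-like cells (867 Cherry_Positive and 465 Cherry_Negative), adventitial fibroblast-like cells (126 and 114), myofibroblast-like cells (246 and 136), pericyte-like cells (63 and 50), endothelial cluster 0 (50 and 550), general capillary-like cells (73 and 380) and Car4 capillary-like cells (82 and 303). Class sizes reflect the sort and are not compared.

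The members were mainly genes of fibroblasts and mural cells. These cells held 99.5% of all Sfrp4 UMIs, 96.8% of those of Dkk3, 91.6% of Sfrp1, 88.5% of Wif1, 81.7% of Lgr6 and 79.3% of Axin2. Dkk2 differed, with 51.3% of its 39 UMIs there and most of the rest in arterial-like cells. These shares follow the class sizes as well as the levels, and no share over all genes was computed beside them. Alveolar fibroblast-like cells alone held 4569204 of 9850110 kept UMIs in the Cherry_Positive library and 1588530 of 11473327 in the Cherry_Negative library. Levels are given in CPM, the UMIs of a gene per 1000000 UMIs of its class, and are compared between classes and libraries for 1 gene at a time. Where a marker is given per Wif1 UMI, the same pair of genes is compared between classes or libraries. Wif1 had its highest level in myofibroblast-like cells and Sfrp4 in adventitial fibroblast-like cells, Dkk3 was present in all 4 of these classes, and Sfrp1 was present in all 3 fibroblast classes of the Cherry_Positive library.

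**Figure D1:**
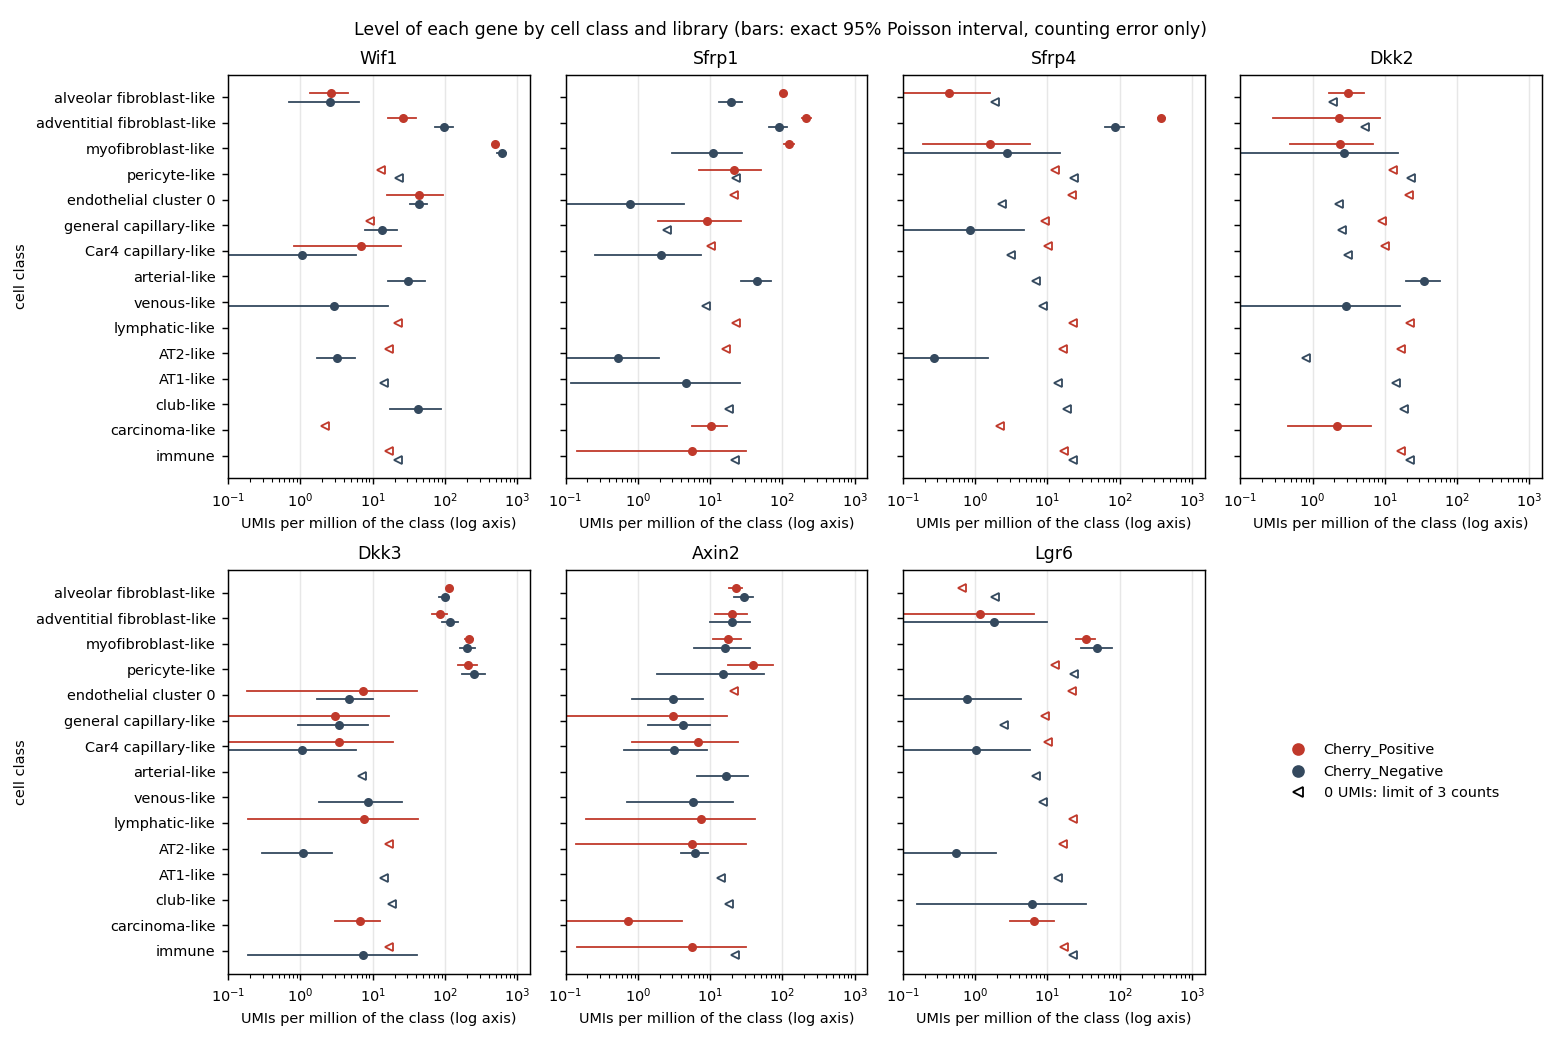
Level of each of the 7 genes in CPM (log axis) by cell class, for Cherry_Positive (red) and Cherry_Negative (dark blue) cells. Points are class sums with exact 95% Poisson intervals, open triangles mark 0 UMIs at the limit of 3 counts, and classes with fewer than 20 cells in a library are not drawn. Wif1 stands highest in myofibroblast-like cells at 497 and 606 CPM, Sfrp4 in adventitial fibroblast-like cells at 377 and 84.6 CPM.

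Differences between the libraries were called where a gene with at least 30 UMIs over both libraries was at least 2-fold higher or lower in Cherry_Positive cells. In alveolar fibroblast-like cells 3 members had enough UMIs, and 1, Sfrp1, was called higher. The background there was 6.03% of 9638 genes called higher and 6.88% called lower. Among 4 members in adventitial fibroblast-like cells, Sfrp1 and Sfrp4 were higher and Wif1 was lower, where 3.07% of 5185 genes were called higher and 2.97% lower. Of 4 members in myofibroblast-like cells, Sfrp1 was higher and none was lower, against 6.04% of 5550 genes higher and 5.8% lower. Pericyte-like cells had 1 measured member, Dkk3, and endothelial cluster 0 had 1, Wif1, and neither was called, where 7.21% and 2.6% of genes were called higher and 5.12% and 9.48% lower. No member reached 30 UMIs in the general or the Car4 capillary-like cells, where 2.4% and 1.42% of genes were called higher and 7.54% and 3.46% lower.

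**Figure D2:**
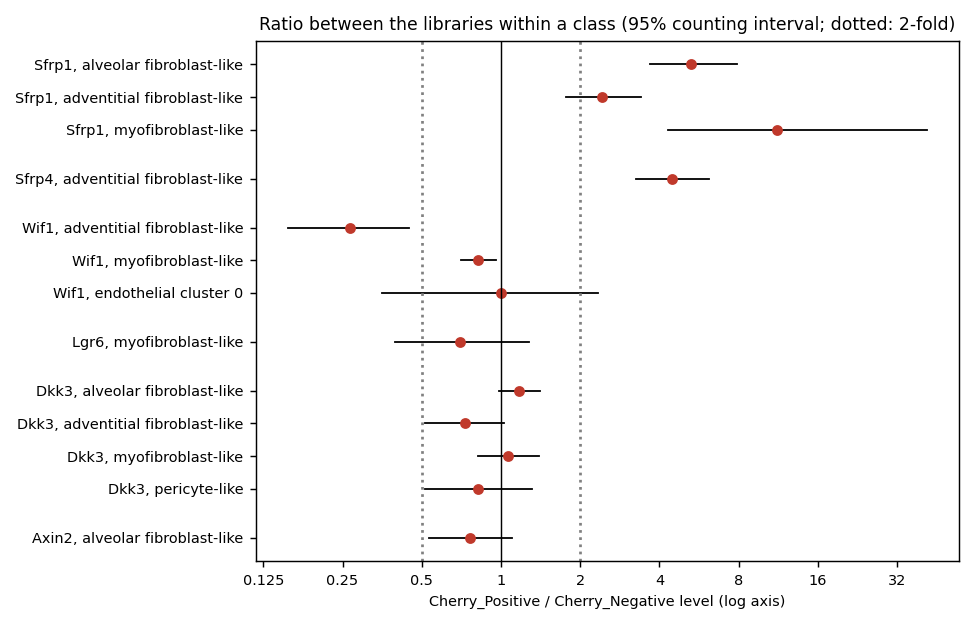
Ratio of the Cherry_Positive to the Cherry_Negative level (log axis) for each member with at least 30 UMIs in a compared class. Points are ratios, bars are 95% counting intervals and dotted lines mark 2-fold. Sfrp1 lies right of 2-fold in all 3 fibroblast classes, at 5.28, 2.43 and 11.2, and Dkk3 within 2-fold in all 4 classes.

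Wif1, which binds Wnt proteins directly, was a gene of myofibroblast-like cells in both libraries. Its level there was 497 CPM (459 to 538) in Cherry_Positive cells and 606 CPM (529 to 691) in Cherry_Negative cells. The ratio was 0.82 (0.703 to 0.96), within 2-fold, and it lay between 0.693 and 0.987 over 14 alternatives. Wif1 was found in 119 of 246 Cherry_Positive and 64 of 136 Cherry_Negative myofibroblast-like cells. After each cell was thinned to 2000 UMIs, leaving out 1 Cherry_Positive and 36 Cherry_Negative cells below that depth, the shares were 38.8% (32.6 to 45.2) and 49.0% (38.9 to 59.2). In AT2-like cells, which should have little Wif1, 1 of 446 Cherry_Negative cells had it at that depth. The UMIs were uneven: the top cell held 59 of 627 in the Cherry_Positive library and 24 of 223 in the Cherry_Negative library, and 18 and 10 cells held 51.0% and 52.0% of them.

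The 7 myofibroblast markers are given each by its own levels in both libraries. P2ry14, a receptor for UDP-sugars, was at 492 CPM in Cherry_Positive and 593 CPM in Cherry_Negative myofibroblast-like cells, or 0.989 and 0.978 UMIs per Wif1 UMI. Mustn1 was at 2708 and 4232 CPM, Tgfbi at 207 and 310 CPM, Enpp2 at 755 and 1128 CPM and Fgf18 at 76.1 and 231 CPM. Aspn, an extracellular matrix protein, stood at 1240 CPM in Cherry_Positive and 2726 CPM in Cherry_Negative myofibroblast-like cells, and Hhip, an inhibitor of hedgehog signalling, at 349 and 1242 CPM. Together the 7 markers summed to 5827 and 10462 CPM, all with UMIs in both libraries. A clustering at finer resolution, whose clusters do not hold exactly the cells of the class, set 42 Cherry_Positive cells and 1 Cherry_Negative cell apart in a cluster led by Ccl7 and Cxcl10, in which Wif1 was 223 CPM (175 to 281) in the Cherry_Positive cells. In the remaining main cluster of that clustering Wif1 was 597 CPM (548 to 648) in 202 Cherry_Positive cells and 629 CPM (549 to 718) in 131 Cherry_Negative cells. The main clusters overlapped in their intervals, and the Cherry_Positive chemokine-led cells were lower than both.

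Adventitial fibroblast-like cells, the fibroblasts of vessel and airway sheaths, had less Wif1. There were 22 UMIs in Cherry_Positive cells (26.0 CPM, 16.3 to 39.4) and 54 in Cherry_Negative cells (97.2 CPM, 73.1 to 127), a ratio of 0.268 (0.155 to 0.447). This difference rested on few cells. In the Cherry_Negative library 1 cell held 29 of the 54 UMIs and another held 11. Neither had any UMI of the adventitial marker Pi16, and they had 4 and 11 UMIs of Aspn, 4 and 2 of Dcn and 42 and 34 of Mgp. Aspn also occurred beside Pi16, as in a Cherry_Negative cell with 2 Wif1, 34 Pi16 and 7 Aspn UMIs. What type of cell these are was not tested. Without the top cell of each library the ratio was 0.476, without the top 5 it was 1.04 (0.3 to 4.04), and with each library clustered by itself it was 0.989. The share of cells with Wif1 at 2000 UMIs was 7.14% (3.32 to 13.1) in Cherry_Positive and 3.64% (1.0 to 9.05) in Cherry_Negative cells, and at 1000 UMIs 3.17% (0.872 to 7.93) and 3.51% (0.964 to 8.74), with overlapping intervals at both depths. The 7 myofibroblast markers summed to 319 CPM in Cherry_Positive and 598 CPM in Cherry_Negative adventitial fibroblast-like cells, with all 7 detected in both, and their part in the result was not tested.

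Wif1 was also present outside the mesenchyme. In endothelial cluster 0 its level was 43.4 CPM (15.9 to 94.5) in Cherry_Positive cells, from 6 UMIs in 5 of 50 cells, and 43.2 CPM (32.7 to 56.1) in Cherry_Negative cells, from 56 UMIs in 43 of 550 cells. General capillary-like cells had 0 UMIs in the Cherry_Positive library, which allows up to 9.13 CPM, and 13.5 CPM (7.71 to 21.9) in the Cherry_Negative library. Arterial-like cells of the Cherry_Negative library had 30.4 CPM (16.2 to 51.9), whereas its Car4 capillary-like cells had 1 UMI (1.04 CPM). Club-like cells of the Cherry_Negative library, only 20 in number, had 42.8 CPM (17.2 to 88.3), from 7 UMIs in 5 cells. The 7 myofibroblast markers are set beside the 56 Wif1 UMIs of Cherry_Negative endothelial cluster 0. Mustn1 had 68 UMIs and Enpp2 23, while Aspn had 4, Tgfbi 3, Hhip 2, P2ry14 1 and Fgf18 0. Per Wif1 UMI that is 1.21 of Mustn1, 0.411 of Enpp2 and 0.0714 of Aspn, against 6.98, 1.86 and 4.5 in the myofibroblast-like cells of that library. Their part in the Wif1 level was not tested. AT2-like cells, with 3711498 UMIs in the Cherry_Negative library, had 12 Wif1 UMIs (3.23 CPM) and pericyte-like cells had 0 in both libraries. In order of level, myofibroblast-like cells stood above all other classes of at least 20 cells beyond counting error, and the intervals of endothelial cluster 0, the Cherry_Negative arterial-like and club-like cells and the Cherry_Positive adventitial fibroblast-like cells overlapped.

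Sfrp1, a secreted Frizzled-related protein, was higher in the Cherry_Positive cells of all 3 fibroblast classes. In alveolar fibroblast-like cells it had 471 UMIs (103 CPM, 94.0 to 113) in the Cherry_Positive library and 31 (19.5 CPM, 13.3 to 27.7) in the Cherry_Negative library, a ratio of 5.28 (3.67 to 7.86). Adventitial fibroblast-like cells had 214 CPM (184 to 248) in the Cherry_Positive library and 88.2 CPM (65.3 to 117) in the Cherry_Negative library, a ratio of 2.43 (1.76 to 3.4). These were the highest levels of Sfrp1 in either library among classes of at least 20 cells. In myofibroblast-like cells 154 UMIs (122 CPM) were counted in Cherry_Positive and 4 (10.9 CPM) in Cherry_Negative cells, a ratio of 11.2 whose interval of 4.3 to 41.7 is wide because of the 4 UMIs. Mesothelial-like cells, a class of 11 and 12 cells and too small to compare, had 161 CPM in the Cherry_Positive library and 328 CPM in the Cherry_Negative library.

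The share of cells with Sfrp1 differed as well. At 2000 UMIs per cell the share with Sfrp1 was 13.3% (11.1 to 15.8) of Cherry_Positive and 2.98% (1.55 to 5.14) of Cherry_Negative alveolar fibroblast-like cells, and 27.8% (20.2 to 36.5) and 11.8% (6.45 to 19.4) of adventitial fibroblast-like cells. Among myofibroblast-like cells it was 12.2% (8.42 to 17) in the Cherry_Positive and 1.0% (0.0253 to 5.45) in the Cherry_Negative library. In Cherry_Negative AT2-like cells, which should lack the gene, it was 0.224% (0.00568 to 1.24). Those cells had a median of 8154 UMIs against 3127 in Cherry_Negative alveolar fibroblast-like cells. In the Cherry_Positive library it was 2.33% (0.482 to 6.65) in a cycling cluster called carcinoma-like below and 3.03% (0.0767 to 15.8) in immune cells. General and Car4 capillary-like cells of that library had 0 of 73 and 0 of 79. Without thinning, the shares in alveolar fibroblast-like cells were 25.5% and 4.95%. Counts of cells with the gene and counts of its UMIs thus pointed the same way in all 3 classes.

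The chemokine-led cells of the finer clustering had the highest Sfrp1 among Cherry_Positive myofibroblast-like cells, at 190 CPM (145 to 243), but the difference between the libraries did not rest on them. In the main myofibroblast-like cluster Sfrp1 was 100 CPM (80.8 to 123) in Cherry_Positive cells and 11.4 CPM (3.1 to 29.2) in Cherry_Negative cells. Markers of other cell types also differed between the libraries in this class. The 6 pan endothelial markers summed to 74.5 CPM in Cherry_Positive and 448 CPM in Cherry_Negative myofibroblast-like cells, with all 6 detected in both, and the 7 AT2 markers to 174 and 1878 CPM, with all 7 detected in both. Alveolar fibroblast markers were at 137 and 204 CPM, with all 9 and 8 of 9 detected and the defining marker Slc7a10 at 0 in the Cherry_Negative cells. Their part in the result was not tested.

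Marker sums of alveolar fibroblast-like cells differed too. Their own 9 markers, all detected in both libraries, were at 6301 CPM in Cherry_Positive and 18424 CPM in Cherry_Negative cells, the 7 AT2 markers at 193 and 2001 CPM and the 6 pan endothelial markers at 60.8 and 398 CPM, again with none at 0. In adventitial fibroblast-like cells the 7 AT2 markers were at 164 and 1653 CPM and the 9 alveolar fibroblast markers at 1412 and 3263 CPM. Mesothelial markers, of interest because mesothelial-like cells had Sfrp1, were at 8.28 and 3.6 CPM there, with Upk3b, Upk1b and Lrrn4 at 0 in both libraries. The part of these markers in the Sfrp1 ratios was not tested.

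Within alveolar fibroblast-like cells Sfrp1 went with cluster. The clusters were one led by Slc7a10 (cluster 2, 118 Cherry_Positive and 318 Cherry_Negative cells), one with Rbp4 and Tnfsf13b (cluster 6, 225 and 99 cells), one with Tnc and Fst (cluster 7, 262 and 29 cells), one with Saa3, Ccl2 and Cxcl10 (cluster 8, 260 and 5 cells) and a small one (cluster 21, 2 and 14 cells). The Cherry_Positive cells of the class were therefore mostly in clusters 6, 7 and 8 and the Cherry_Negative cells mostly in cluster 2. In cluster 2 Sfrp1 was near 0 in both libraries, with 2 UMIs (4.23 CPM) in Cherry_Positive and 4 UMIs (4.03 CPM) in Cherry_Negative cells. Cluster 6 had 185 CPM (161 to 212) in Cherry_Positive and 56.1 CPM (36.0 to 83.5) in Cherry_Negative cells, a ratio of 3.3 (2.16 to 5.26). This was past 2-fold within 1 cluster, where 3.92% of 5666 genes were called higher. Cluster 7 had 35.9 CPM (26.6 to 47.5) in Cherry_Positive and 23.6 CPM (2.86 to 85.3) in Cherry_Negative cells, from 49 and 2 UMIs, and these intervals overlap. Cluster 8, almost all Cherry_Positive, had 131 CPM (113 to 150), from 206 of the 471 Cherry_Positive Sfrp1 UMIs of the class. Its name is weakly based, with 5 of 9 alveolar fibroblast markers detected against 9 of 9 in cluster 2. Those markers stood on average 0.065 log2 units above the mean of all clusters, against 2.631 in cluster 2. The ratio of 5.28 over the whole class thus compares libraries whose cells lie mostly in different clusters, and among clusters 2, 6 and 7, with at least 20 cells in each library, the ratio was past 2-fold only in cluster 6.

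**Figure D3:**
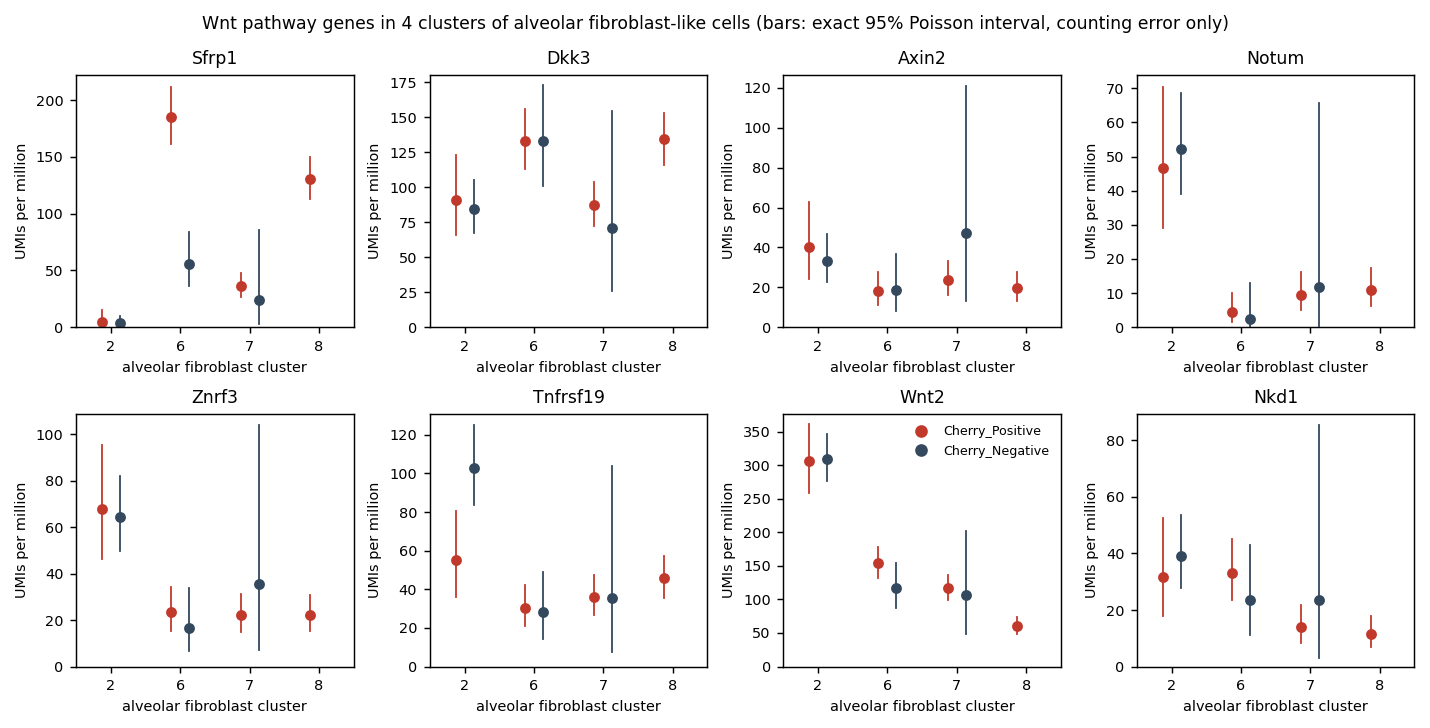
Levels of Sfrp1, Dkk3, Axin2 and 5 other Wnt pathway genes in CPM in 4 clusters of alveolar fibroblast-like cells, Cherry_Positive (red) left of Cherry_Negative (dark blue), with exact 95% Poisson intervals. The 5 Cherry_Negative cells of cluster 8 are not drawn. Sfrp1 is near 0 in cluster 2 of both libraries (4.23 and 4.03 CPM), where Notum (46.6 and 52.3 CPM) and Wnt2 (307 and 310 CPM) are highest.

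Sfrp4, another secreted Frizzled-related protein, was almost confined to adventitial fibroblast-like cells, which held 319 of its 323 Cherry_Positive and 47 of its 50 Cherry_Negative UMIs. The level was 377 CPM (337 to 421) in Cherry_Positive and 84.6 CPM (62.2 to 113) in Cherry_Negative cells, a ratio of 4.46 (3.27 to 6.19). It was found in 37 of 126 and 16 of 114 cells. At 2000 UMIs per cell it was found in 19 of 126 (15.1%, 9.33 to 22.5) and 11 of 110 cells (interval 5.1% to 17.2%), and these intervals overlap. The difference lay more in UMIs per cell than in the number of cells. In the Cherry_Positive library 7 cells had 10 or more Sfrp4 UMIs and the highest had 87, whereas the highest Cherry_Negative cell had 8. The cell with 87 UMIs had 1 UMI of Dcn and none of Pi16, while the next cell, with 41 Sfrp4 UMIs, had 113 of Dcn and 4 of Pi16. The top 3 Cherry_Positive cells held 50.5% of the UMIs and the top 4 Cherry_Negative cells 51.1%. Over 13 alternatives, which included leaving out the top cell or the top 5 cells of each library, the ratio ranged from 3.65 to 4.74.

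The finer clustering, also made without the members, had 2 adventitial fibroblast-like clusters, which do not hold exactly the 126 and 114 cells of the class, and the antagonists differed between them. All 319 and 47 Sfrp4 UMIs were in the cluster led by Ccl11, Sfrp4 and Serpinf1 (108 Cherry_Positive and 90 Cherry_Negative cells). The cluster led by C1qtnf3 and Adh7 (19 and 24 cells) had 0 Sfrp4 UMIs in both libraries. In it Sfrp1 was 38.0 CPM (10.3 to 97.2) in Cherry_Positive and 37.0 CPM (12 to 86.3) in Cherry_Negative cells, against 238 CPM (204 to 275) and 105 CPM (76.1 to 141) in the Ccl11 cluster. Wif1 had the reverse order in Cherry_Positive cells, with 161 CPM (94.0 to 258) in the C1qtnf3 cluster and 6.72 CPM (2.18 to 15.7) in the Ccl11 cluster. In Cherry_Negative cells Wif1 was 88.7 CPM (45.9 to 155) in the C1qtnf3 cluster and 100 CPM (72.1 to 135) in the Ccl11 cluster, where its 42 UMIs came from 3 cells. Cell by cell, Wif1 was present in 1 of 54 Cherry_Positive adventitial fibroblast-like cells with Sfrp1 and in 11 of 72 without it, and in 0 of 25 and 8 of 89 Cherry_Negative cells, with overlapping intervals in each library. The myofibroblast marker Hhip was at 171 CPM in the C1qtnf3 cluster against 22.8 CPM in the Ccl11 cluster in Cherry_Positive cells, and at 229 CPM against 54.8 CPM in Cherry_Negative cells. Another, Aspn, was at 256 CPM against 117 CPM in Cherry_Positive cells and at 288 CPM in both clusters in Cherry_Negative cells. Their part in the Wif1 values was not tested.

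**Figure D4:**
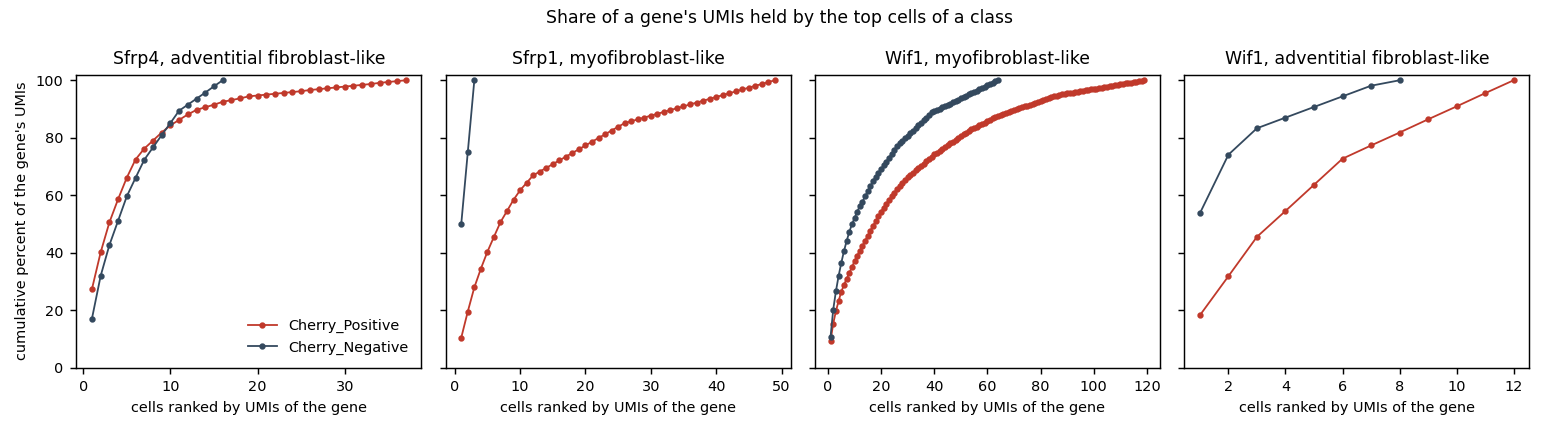
Cumulative percent of a gene's UMIs in a class against cells ranked by their UMIs of that gene, for Cherry_Positive (red) and Cherry_Negative (dark blue) cells with at least 1 UMI. In adventitial fibroblast-like cells the top Cherry_Positive cell holds 27.3% of Sfrp4 and the top Cherry_Negative cell 53.7% of Wif1, while in myofibroblast-like cells the top cells hold 9.41% and 10.8% of Wif1.

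Dkk2, which binds LRP5 and LRP6, was rare, with 22 Cherry_Positive UMIs in 10 cells and 17 Cherry_Negative UMIs in 7 cells. Its clearest site was the arterial-like class of the Cherry_Negative library, with 15 UMIs in 5 of 134 cells (35.1 CPM, 19.6 to 57.8). The 13 Cherry_Positive arterial-like cells are too few to set beside them. Each of the 5 cells had UMIs of the endothelial genes Pecam1 (3 to 14) and Vwf (8 to 24) and none of the fibroblast genes Col1a2 and Dcn. In 2 of them Sfrp1 was also present, with 4 and 5 UMIs, and another arterial-like cell had 10 Sfrp1 UMIs without Dkk2. Those 3 cells carried all 19 Sfrp1 UMIs of the class. Alveolar fibroblast-like cells had 14 Dkk2 UMIs in 6 of 867 Cherry_Positive cells (3.06 CPM) and 0 UMIs in 465 Cherry_Negative cells. With the Cherry_Negative class set at the limit of 3 counts, Cherry_Positive cells were at least 1.62-fold higher. These UMIs lay in cluster 7 (9 UMIs) and cluster 8 (5 UMIs), which held few Cherry_Negative cells.

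Dkk3 was present in pericyte-like cells and every fibroblast class of both libraries. Pericyte-like cells, which wrap capillaries, had 207 CPM (153 to 274) in the Cherry_Positive library and 253 CPM (174 to 356) in the Cherry_Negative library. Myofibroblast-like cells had 216 CPM (191 to 243) and 204 CPM (160 to 256). Alveolar fibroblast-like cells had 115 CPM (106 to 126) and 98.2 CPM (83.4 to 115), and adventitial fibroblast-like cells 85.1 CPM (66.6 to 107) and 117 CPM (90.3 to 149). Its ratios were 0.817 (0.514 to 1.31) in pericyte-like, 1.06 (0.817 to 1.39) in myofibroblast-like, 1.17 (0.981 to 1.41) in alveolar and 0.727 (0.513 to 1.03) in adventitial fibroblast-like cells. All 4 ratios were within 2-fold with intervals that include 1. Over the alternatives, trimmed-mean scaling among them, they ranged from 0.747 to 1.18 in pericyte-like and from 0.937 to 1.22 in myofibroblast-like cells. In alveolar fibroblast-like cells the range was 0.998 to 1.29 and in adventitial fibroblast-like cells 0.696 to 0.931. Only the adventitial range lay wholly below 1, and since every main interval includes 1, no direction is given. Both libraries gave the pericyte-like and myofibroblast-like cells more Dkk3 than either of the others. Cluster 6 of the alveolar fibroblast-like cells had 133 CPM in both libraries. Outside the mesenchyme Dkk3 was low, with 4 UMIs in the AT2-like cells of the Cherry_Negative library (1.08 CPM, 0.294 to 2.76).

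Axin2, the target gene used most often as a readout of canonical Wnt signalling, was low in every class and was seen mostly as single UMIs, in 145 Cherry_Positive and 109 Cherry_Negative cells. Alveolar fibroblast-like cells had 22.5 CPM (18.4 to 27.3) in the Cherry_Positive library and 29.6 CPM (21.7 to 39.3) in the Cherry_Negative library, a ratio of 0.762 (0.535 to 1.1). At 2000 UMIs per cell 4.48% (3.19 to 6.09) and 5.96% (3.85 to 8.73) of these cells had it, against 1.35% (0.495 to 2.91) of Cherry_Negative AT2-like cells. Adventitial fibroblast-like cells had 20.1 and 19.8 CPM and myofibroblast-like cells 17.4 and 16.3 CPM in the Cherry_Positive and Cherry_Negative libraries. Pericyte-like cells had 9 UMIs (38.8 CPM, 17.7 to 73.7) in the Cherry_Positive and 2 UMIs (15.3 CPM, 1.86 to 55.4) in the Cherry_Negative library. The intervals of all 4 classes overlapped within and between the libraries, so no order of Axin2 among them was detectable at this depth. Endothelial cells had few Axin2 UMIs, with 0 in Cherry_Positive and 4 in Cherry_Negative cells of endothelial cluster 0, 1 and 5 in general capillary-like cells and 2 and 3 in Car4 capillary-like cells.

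By cluster of the alveolar fibroblast-like cells, Axin2 was 40.2 CPM (24.2 to 62.8) in Cherry_Positive and 33.2 CPM (22.9 to 46.6) in Cherry_Negative cells of cluster 2. Cluster 6 had 18.3 CPM (11.3 to 27.9) and 18.7 CPM (8.08 to 36.9). Cluster 7 had 23.5 CPM (16.1 to 33.1) in Cherry_Positive cells and 47.2 CPM (12.9 to 121) in the 29 Cherry_Negative cells, from 4 UMIs, and Cherry_Positive cluster 8 had 19.7 CPM (13.4 to 27.9). Within clusters 2 and 6 the libraries were close, and cluster 2 stood above cluster 6 in both, though with overlapping intervals.

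Lgr6, the R-spondin receptor, was another gene of myofibroblast-like cells. They held 43 of its 54 Cherry_Positive and 18 of its 28 Cherry_Negative UMIs, at 34.1 CPM (24.7 to 45.9) and 48.9 CPM (29.0 to 77.3). The ratio was 0.697 (0.394 to 1.28), within 2-fold and with an interval that includes 1. Alveolar fibroblast-like cells had 0 Lgr6 UMIs in both libraries, out of 4569204 and 1588530 UMIs, which allows up to 0.657 CPM and 1.89 CPM. Smooth muscle-like cells, only 3 and 17 in number, had 4 UMIs in 4 of the 17 Cherry_Negative cells, out of 79797 UMIs. In Cherry_Negative myofibroblast-like cells the 18 UMIs came from 17 of 136 cells, out of 367918 UMIs. The smooth muscle-like cells are therefore not shown to have less Lgr6. A cycling cluster led by S100a4, Spp1 and Ube2c, called carcinoma-like because 3 of 6 keratin markers were detected, had 9 UMIs in 7 of 130 Cherry_Positive cells (6.56 CPM, 3.0 to 12.5). Lgr6 and Wif1 shared a class, but the share of cells with Lgr6 did not differ beyond counting error between cells with and without Wif1. In the Cherry_Positive library 15.1% (9.22 to 22.8) of myofibroblast-like cells with Wif1 and 15.7% (9.89 to 23.3) of those without it had Lgr6, and in the Cherry_Negative library 15.6% (7.76 to 26.9) and 9.72% (4.0 to 19.0).

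The other Wnt pathway genes, 76 in 6 lists, give the setting of the members. In alveolar fibroblast-like cells 41 of the 76 had at least 30 UMIs, of which 6 were higher and 6 lower in Cherry_Positive cells. Over all 9638 genes, 6.03% were called higher and 6.88% lower. The median log2 ratio was -0.16, against -0.07 over all genes. The 6 higher were Frzb, Wnt11, Ror2, Rspo3, Nkd2 and Myc and the 6 lower were Notum, Wnt4, Wnt5b, Rspo4, Dvl3 and Nkd1. Myc, a growth regulator and Wnt target, was 28.7 CPM in Cherry_Positive and 5.04 CPM in Cherry_Negative cells, a ratio of 5.69 (2.81 to 13.5). Rspo3, an R-spondin, was 16 and 5.04 CPM, a ratio of 3.17 (1.53 to 7.62). Frzb, another secreted Frizzled-related protein, had 36 Cherry_Positive UMIs and 0 Cherry_Negative UMIs, or at least 4.17-fold higher with the Cherry_Negative class at the limit of 3 counts. Frzb, Wnt11, Ror2, Nkd2, Rspo3, Wnt4, Wnt5b, Rspo4 and Dvl3 were below 20 CPM in both libraries and are named after their values were seen, to complete the count.

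Notum, a secreted enzyme that inactivates Wnt proteins by removing their lipid, had 12.5 CPM in Cherry_Positive and 36.5 CPM in Cherry_Negative alveolar fibroblast-like cells, a ratio of 0.342 (0.233 to 0.501). Nkd1, an inhibitor inside the cell that Wnt signalling induces, had 20.1 and 40.3 CPM, a ratio of 0.5 (0.359 to 0.699). Short of 2-fold were Tnfrsf19, a target gene, at 39.8 and 78.7 CPM (ratio 0.506, 0.401 to 0.641), the ligand Wnt2 at 126 and 239 CPM (0.527, 0.462 to 0.601) and Znrf3, which removes Frizzled receptors from the surface, at 27.1 and 47.8 CPM (0.567, 0.423 to 0.765). The receptor Fzd1 was 96.5 and 61.1 CPM (1.58, 1.27 to 1.99) and the cell cycle gene Ccnd1 29.5 and 15.7 CPM (1.88, 1.22 to 3.0). The Ccnd1 ratio depended on the setting, at 0.92 (0.32 to 2.36) in cluster 2 alone, 0.991 (0.238 to 5.8) in cluster 6 alone and 19.0 with 5% free RNA subtracted. Wls, which carries Wnt proteins to the surface, Ctnnb1, which encodes beta-catenin, and Lrp6 were close in the libraries, with ratios of 1.05, 1.05 and 0.997.

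The same genes were compared within a cluster. In cluster 2 none of 17 measured list genes was past 2-fold, where 1.37% of 5560 genes were higher and 2.99% lower. Wnt2 was 307 CPM in Cherry_Positive and 310 CPM in Cherry_Negative cells of cluster 2, and 154 and 117 CPM in cluster 6. Notum was 46.6 and 52.3 CPM in cluster 2 and 4.35 and 2.34 CPM in cluster 6. Znrf3 was 67.7 and 64.4 CPM in cluster 2 and 23.5 and 16.4 CPM in cluster 6. These 3 genes thus stood higher in cluster 2 than in cluster 6 in both libraries, and Sfrp1 the other way round. In cluster 6 the Notum values rest on 5 and 1 UMIs and those of Znrf3 on 27 and 7. Tnfrsf19 differed within cluster 2, at 55.0 CPM in Cherry_Positive and 103 CPM in Cherry_Negative cells (ratio 0.536, 0.334 to 0.831). Fzd1 differed within cluster 6, at 95.6 and 44.4 CPM (2.15, 1.31 to 3.71). Fzd2 was the 1 list gene there past 2-fold the other way, at 16.5 and 37.4 CPM (0.441, 0.215 to 0.918). Of 19 list genes measured in cluster 6 that is 1 higher and 1 lower, where 3.92% of 5666 genes were higher and 3.0% lower. Myc was rare in cluster 2, with 1 and 0 UMIs, and was 49.9 CPM in Cherry_Positive and 59.1 CPM in Cherry_Negative cells of cluster 7.

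In adventitial fibroblast-like cells 20 list genes were measured, with a median log2 ratio of -0.30 against -0.02 over all genes. Where 3.07% of 5185 genes were called higher and 2.97% lower, none of the 20 was higher and 2 were lower. The 2 were the receptor Fzd2, at 48.5 CPM in Cherry_Positive and 106 CPM in Cherry_Negative cells (0.456, 0.299 to 0.691), and Tcf7l2, a TCF protein, at 39.0 and 82.8 CPM (0.471, 0.292 to 0.753). Ccnd1 was next, at 30.7 and 61.2 CPM (0.502, 0.289 to 0.862). In myofibroblast-like cells 15 were measured and none was past 2-fold, where 6.04% of 5550 genes were higher and 5.8% lower. Their median was -0.19 against -0.08. Wnt5a, a ligand known mainly for signalling without beta-catenin, and Ryk, a receptor for it, were highest there, Wnt5a at 122 CPM in Cherry_Positive and 177 CPM in Cherry_Negative cells (0.691, 0.514 to 0.939) and Ryk at 168 and 239 CPM (0.703, 0.546 to 0.912). Pericyte-like cells had 8 measured list genes, of which Tcf7 was called higher and none lower, where 7.21% of 2109 genes were higher and 5.12% lower. Tcf7 was at 116 and 53.7 CPM (2.17) from 27 and 7 UMIs, with an interval of 0.921 to 5.9 that includes 1.

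Among the compared endothelial classes, only endothelial cluster 0 had a member with at least 30 UMIs, which was Wif1. Arterial-like cells, which were not compared, had Wif1 and Dkk2 as given above. The compared endothelial classes did have Wnt receptors and targets. Nkd1 was highest in Car4 capillary-like cells, at 640 CPM in Cherry_Positive and 704 CPM in Cherry_Negative cells (0.909, 0.769 to 1.07), and Ccnd1 was highest in general capillary-like cells among the compared classes, at 751 and 815 CPM (0.922, 0.799 to 1.06). In general capillary-like cells 2 of 16 measured list genes were lower, where 7.54% of 5796 genes were. Fzd4, a Frizzled receptor of endothelium, was 42.6 CPM in Cherry_Positive and 104 CPM in Cherry_Negative cells (0.408, 0.217 to 0.71) and Wls 39.6 and 88.5 CPM (0.447, 0.23 to 0.798). This class joins cluster 5, with 39 Cherry_Positive and 313 Cherry_Negative cells, and cluster 13, led by AA467197, Ubd and Ido1, with 34 and 67. The libraries thus differ in their mix of these clusters, whose part in the Fzd4 and Wls ratios was not tested. In Car4 capillary-like cells Fzd4 was 88.0 and 48.0 CPM (1.83, 1.09 to 3.03). There Gsk3a, a kinase acting on beta-catenin (0.451, 0.138 to 1.15), and Tcf7 (0.27, 0.0533 to 0.856) were the 2 lower of 12 measured, against 3.46% of 5201 genes. In endothelial cluster 0, 2 of 15 were lower, where 9.48% of 5728 genes were. These were Lrp5 (0.318, 0.0376 to 1.2) and Tcf7 (0.208, 0.00516 to 1.22), each on 1 or 2 Cherry_Positive UMIs.

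The genes most like each member were ranked by Pearson correlation of log2(CPM + 10) over 24 class-by-library sums, among 10360 genes with at least 100 UMIs. These points share libraries and cell classes, so the values describe likeness only. P4ha3, S100b and Fam180a were most like Wif1, at 0.85, 0.84 and 0.84. Nearest to Sfrp1 were Tnfaip6 (0.89), a secreted protein induced by inflammatory cytokines, Il1r1 (0.85), the interleukin-1 receptor, and Has1 (0.85), which makes hyaluronan. For Sfrp4 they were Fbln7 (0.97), Aldh1a2 (0.95), which makes retinoic acid, and Scara5 (0.94), and for Dkk3 they were Ism1 (0.96), Gm9780 (0.95) and C1qtnf1 (0.94). Axin2 was nearest to P3h3, Sparcl1 and Fbn1, each at 0.87. Dkk2 and Lgr6 had fewer than 100 UMIs and were not ranked.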

How the data were processed

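Single-cell libraries of Cherry_Positive and Cherry_Negative CD45- lung cells were analysed, 1 of each. The deposited matrices give raw UMI counts for each gene in each barcode of Chromium 3' libraries, with a target of 50000 reads per cell per the labels. Tools listed per the submitters' processing notes are Cell Ranger 2.1.1, R 4.0.3 and Seurat 4.0.2, with the build mm10. Filtering before deposit was not given in the sources used here. Members and gene lists were chosen with earlier results of these data known.

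Analysis used Python 3.11.15 with pandas 2.3.3, scipy 1.17.1 and numpy 2.4.6. The cell filter asked for at least 500 genes and at most 10% mitochondrial UMIs, which 56 Cherry_Positive and 50 Cherry_Negative barcodes failed. Doublets called by Scrublet (scanpy 1.11.5, expected rate 2%) were removed, 4 among Cherry_Positive cells (0.226%) and 7 among Cherry_Negative cells (0.249%). With so few calls, doublets may remain. Cells with UMIs of at least 3 pan markers of each of 2 lineages numbered 63 and 155 and were removed in an alternative. Cells of both libraries were clustered together on 2000 variable genes, without 83 Wnt genes, with 30 principal components, 15 neighbours and leidenalg 0.10.2 at resolution 1. A class name needed at least 3 markers, each detected in at least 10% of the cluster's cells, and not more markers of another class than of its own among 10 leading genes. Levels are sums over a class in a library, scaled by its total. Their intervals are exact Poisson ones; a ratio takes its interval from the binomial share of the Cherry_Positive UMIs, and shares of cells have exact binomial (Clopper-Pearson) intervals. For 0 UMIs the limit is 3 counts. The functions were tested on simulated data. No p-value was computed. Figures were drawn with matplotlib 3.10.9.

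All 7 members are named. Of the lists, genes with at least 30 UMIs and 20 CPM in either library of a compared class could be named. Medians of log2 ratios have 0.5 added to each count. Trimmed-mean scaling raised log2 ratios by 0.14 in alveolar fibroblast-like, 0.08 in adventitial fibroblast-like, 0.2 in myofibroblast-like and 0.26 in pericyte-like cells.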

Additional observations from a re-analysis of the deposited data

How the results depend on the processing

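With 1 library per group, differences between animals or sorts cannot be told apart from those between the groups, and counting intervals do not cover them. Dkk2 and Lgr6 rest on 39 and 82 UMIs in all. No paired analysis was possible because each group has 1 library. Alternatives changed the cell filter, doublet treatment, clustering, free RNA, scaling, averaging over cells and top cells. Using clusters singly, leaving out the top 5 cells and leaving out the chemokine-led myofibroblast cluster were chosen after seeing the data.

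Over these settings the ratio of Sfrp1 in myofibroblast-like cells stayed between 6.6 and 20.2, and that of Sfrp4 in adventitial fibroblast-like cells between 3.65 and 4.74. The Wif1 ratio in myofibroblast-like cells was 0.695 with at least 1000 genes and at most 5% mitochondrial UMIs, 0.987 at resolution 0.5, 0.693 with each library clustered by itself and 0.961 without the chemokine-led cluster. Under trimmed-mean scaling 3 in place of 6 of the other Wnt list genes were at least 2-fold lower in alveolar fibroblast-like cells. Without the top 5 cells of each library the Sfrp1 ratio in adventitial fibroblast-like cells was 3.72, and that of Wif1 reversed to 1.04. In alveolar fibroblast-like cells the Sfrp1 ratio was 1.05 in cluster 2, 3.3 in cluster 6 and 1.52 in cluster 7, and the Axin2 ratio 1.21 in cluster 2 and 0.497 in cluster 7. Notum (1.86) and Nkd1 (1.41) reversed in cluster 6, and Myc (0.844) in cluster 7, where fewer cells are compared. The cause of the other changes was not tested. For the other levels, shares, ratios and the list median, 356 alternative values stayed within the main counting interval or close to the main median, and 49 did not. Direction was not scored there. The 49 included ratios of Wnt2 (up to 1.32) and Znrf3 (up to 1.43) in alveolar fibroblast-like cells, whose main ratios were below 1.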
